A study of Mus musculus with 4 samples.

Results

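The genes that build the secretory machinery of the endoplasmic reticulum (ER) were followed in mouse embryonic stem (ES) cells that carried 2, 1 or 0 intact copies of BAF250, a DNA-binding subunit of the BAF remodellers, which move nucleosomes. The set holds 46 genes named by function: the translocon, signal peptidase, oligosaccharyltransferase, ER chaperones, disulfide isomerases, retrieval and cargo receptors, and the COPII coat. Of these, 45 had a probe set with a symbol of their own among the 18194 genes on the array and all 45 passed the filter on dim genes, which left 13730 genes tested. Sec61g, the small gamma chain of the translocon, had only a probe set shared with other symbols and has no value here. Each gene was represented by its brightest probe set, and the question asked was whether secretory capacity moved with the genes of the basement membrane matrix.

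The 4 cultures were 2 homozygous knock-out lines, called ko1 and ko2, 1 heterozygous knock-out line and 1 wild type culture, with 1 Affymetrix array each. All grew on gelatin and without feeders, in GMEM medium with glutamine, pyruvate, nonessential amino acids, fetal bovine serum, beta-mercaptoethanol and leukocyte inhibitory factor (the name the labels give). The labels do not say how the alleles were made, whether a line is 1 clone, or which parent line was used. Every p-value rests only on the spread between these cultures, borrowed largely or wholly across genes. Wild type and heterozygous had a single array, so in the fit of a mean per genotype the difference between ko1 and ko2 stood in for their spread. In the fit of 2 groups used further below, the difference between wild type and heterozygous also counted as spread, though they differ in genotype.

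Proteins bound for the cell surface or the matrix enter the ER through the SEC61 channel, lose their signal peptide to signal peptidase, and receive N-linked glycans from oligosaccharyltransferase. Chaperones such as BiP and GRP94, the lectins calnexin and calreticulin, and disulfide isomerases fold them, and COPII vesicles carry the folded cargo to the Golgi, from which KDEL receptors return escaped chaperones. Cells that secrete much, such as parietal endoderm laying down Reichert's membrane, are known for an extended rough ER. When unfolded protein builds up, the factors ATF6 and XBP1 raise chaperone genes through the ER stress response element (ERSE), made of a CCAAT box and the letters CCACG at a fixed distance.

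That element and its relatives were looked for in the promoters of the set. RefSeq promoter windows (assembly GRCm38.p6, from 250 bases before to 50 after the start) were found for 38 of the 46 genes. The ERSE, CCAAT and CCACG with 9 bases between them on either strand, was present in 7 of the 38 genes (18.4%), against 0.166% of 17491 protein-coding genes with such windows. The 7 were Hspa5, Hsp90b1, Calr, Canx, Dnajc3, Creld2 and Pdia6, all of them chaperones, cochaperones or disulfide isomerases. ERSE-II, ATTGG and CCACG with 1 base between them, stood in 1 of the 38, Dnajb11 (2.63% against 0.0629% of all genes), 8 to 18 bases after the start. The element TGACGTGG, here called UPRE, was present in 3 of the 38, Kdelr3, Sec23a and Sec24d (7.89% against 0.823%). All of these patterns hold CCACG on one strand or the other, so they can overlap. A match describes letters in the window and is not a site shown to be used. The ERSE is known from ER chaperone genes and the set was named to hold such genes. Its excess over all genes is therefore no independent result.

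Printed here are the 220 bases before the start in 5 genes whose levels the results below turn on, 5′ to 3′ along the gene, with the fixed letters of ERSE or UPRE in capitals. Hsp90b1 holds 2 ERSE matches and the other 3 chaperone and cochaperone genes 1 each; Kdelr3 holds the UPRE letters, 30 to 23 bases before its start.
Kdelr3 (chr15:79516188-79516407, plus strand): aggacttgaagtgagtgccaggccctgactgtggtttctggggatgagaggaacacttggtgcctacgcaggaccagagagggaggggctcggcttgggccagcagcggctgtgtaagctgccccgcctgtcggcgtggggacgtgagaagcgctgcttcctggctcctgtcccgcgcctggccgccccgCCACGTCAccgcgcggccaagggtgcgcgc
Hspa5 (chr2:34771870-34772089, plus strand): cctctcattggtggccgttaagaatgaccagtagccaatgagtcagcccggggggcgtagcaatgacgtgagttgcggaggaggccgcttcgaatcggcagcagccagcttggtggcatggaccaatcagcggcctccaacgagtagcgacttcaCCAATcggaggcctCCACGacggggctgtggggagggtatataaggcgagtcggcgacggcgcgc
Hsp90b1 (chr10:86705445-86705664, minus strand): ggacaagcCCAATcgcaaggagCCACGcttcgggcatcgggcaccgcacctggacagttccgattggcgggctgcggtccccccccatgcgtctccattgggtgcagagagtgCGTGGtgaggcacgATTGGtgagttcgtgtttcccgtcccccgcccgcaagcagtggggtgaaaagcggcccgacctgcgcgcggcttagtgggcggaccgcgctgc
Calr (chr8:84846932-84847151, minus strand): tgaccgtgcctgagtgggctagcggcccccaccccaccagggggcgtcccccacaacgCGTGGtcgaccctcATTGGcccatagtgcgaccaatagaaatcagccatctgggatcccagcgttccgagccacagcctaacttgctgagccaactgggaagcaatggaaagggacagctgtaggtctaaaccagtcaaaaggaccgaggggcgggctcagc
Creld2 (chr15:88819426-88819645, plus strand): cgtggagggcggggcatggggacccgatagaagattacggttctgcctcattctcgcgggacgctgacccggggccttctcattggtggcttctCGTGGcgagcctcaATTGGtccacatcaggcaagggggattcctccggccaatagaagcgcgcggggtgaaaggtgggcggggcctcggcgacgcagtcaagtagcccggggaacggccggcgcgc

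The arrays differed in level and in a sign of RNA quality. The median signal was 4.01 in wild type and between 2.61 and 2.74 in the others, and the median gene differed by -0.75 (log2) between homozygous and wild type, by -0.03 between homozygous and heterozygous, and by -0.68 between heterozygous and wild type. Each log2 difference below has the median gene of its comparison subtracted, on the scale log2(signal + 0.675), while p-values were computed without that subtraction. Background, taken as the highest signal among 27 control probe sets for bacterial RNA that was not spiked in, was between 3.82 and 7.57. The 3′ over 5′ ratio of the actin control probe sets was 1.30 in wild type, 2.86 in heterozygous, 2.61 in ko2 and highest in ko1, at 5.01. The brighter probe set of Arid1a, the gene of BAF250a, read 109 in wild type, 50.4 in heterozygous, 7.03 in ko1 and 3.57 in ko2, in the order of the labelled genotypes, and the second 42.9, 24.1, 17.3 and 1.06. The labels do not name the altered stretch of the gene, and a probe set outside that stretch would check nothing.

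Relative to the median gene, nearly all members of the set stood higher in the homozygous lines than in wild type, but no single gene passed the test in that comparison. Of the 45 genes, 43 lay above the median gene, where 50% of all tested genes lie by construction, and the median log2 difference was 1.08. On the deposited scale, where the median gene stood at -0.75, 29 of the 45 were above 0 and the median was 0.33. Relative to the median gene it was 1.23 in ko1 alone and 0.76 in ko2 alone, with 40 and 39 of the 45 above the median gene. None rose and none fell by limma with Benjamini-Hochberg adjustment over all genes at 0.05, where 0.401% of all tested genes rose and 0.619% fell. At an unadjusted p under 0.05, 6 of the 45 were higher (13.3%, against 1.81% of all tested genes) and 0 lower: Ssr3, Sec11c, Hspa5, Hyou1, Pdia3 and Kdelr3. After quantile normalization or median centring the number of risen members against wild type was still 0, while 0.233% and 0.328% of all genes rose.

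**Figure D1:**
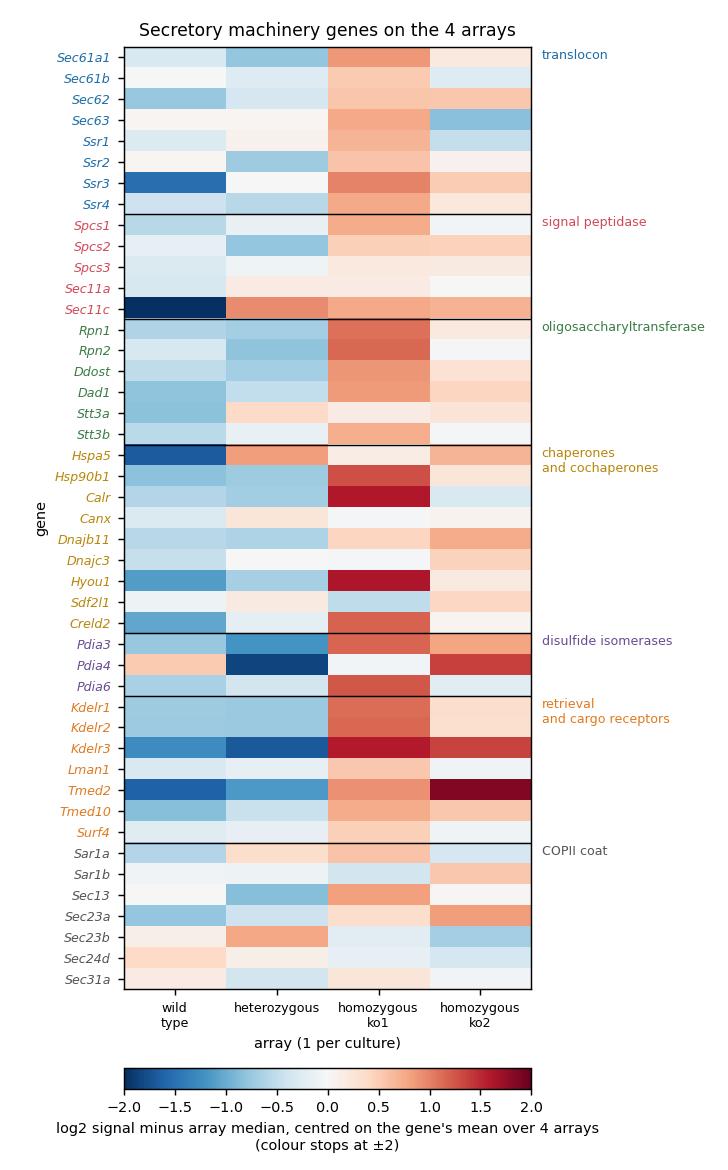
Log2 signal of 45 secretory machinery genes (rows, grouped by role) on the 4 arrays (columns), each array centred on its median tested gene and each gene on its mean over the arrays; red is higher, blue lower. The homozygous columns are redder than the others in most roles, ko1 more so than ko2, while Hspa5 and Sec11c are low in wild type only and most COPII rows are pale.

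In the signals as deposited, both homozygous arrays lay above both other arrays in 18 of the 45 genes (40%), against 11% of all tested genes. Both lay below in 3, Canx, Sec23b and Sec24d (6.67%, against 26.9%). With each array centred on its median gene, 29 lay above (64.4%, against 18.1%) and 2 below, Sec23b and Sec24d (4.44%, against 21.4%). The scaling therefore moved the share that stood apart upward by more than 10 percentage points, and both counts are given. Both counts above include Tmed2, which passed the filter on dim genes only through its homozygous arrays. The set held bright probe sets: 37 of 45 were above background on all 4 arrays, against 26.2% of all tested genes, and 23 lay among the brightest 10% of genes. That brightest class had a median difference of -0.04, and with each member set against genes of its own class of signal (10 equal classes) the median of the set was 1.10, with 43 of 45 above.

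**Figure D2:**
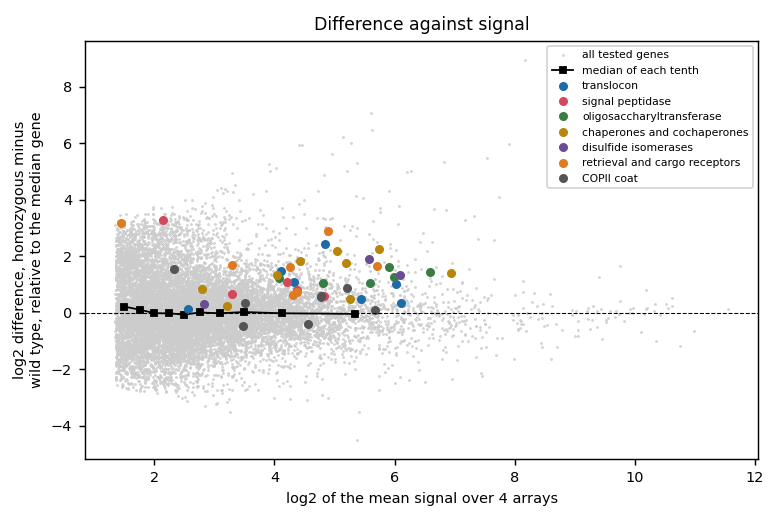
Log2 difference of homozygous minus wild type, relative to the median gene (vertical), against log2 of the mean signal over the 4 arrays (horizontal), for all 13730 tested genes in grey and the members in colour by role. The black squares, the medians of 10 equal classes of genes by signal, run near 0 from left to right, and 43 of the 45 members lie above the dashed line.

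The translocon genes stood at a median of 0.79, with all 8 measured members above the median gene. SSR3, the gamma subunit of the translocon-associated protein (TRAP) complex that helps signal peptides open the channel, showed the widest gap of the group. Ssr3 read 11.7 in the wild type culture, 22.6 in the heterozygous line, 48.3 in ko1 and 31.9 in ko2. Both homozygous lines lay above heterozygous, and heterozygous above wild type; homozygous minus wild type was 2.43 ± 0.57 (SE), limma adjusted p = 0.177, and heterozygous minus wild type 1.59. Sec62, a channel partner used by short and post-translationally inserted proteins, read 23.00 (ko1) and 21.3 (ko2) against 13.1 (wild type) and 11.4 (heterozygous), a log2 difference of 1.48 ± 0.63 (SE) from wild type. Ssr4, the delta subunit of TRAP, read 30.4 (ko1) and 19.3 (ko2) against 19.1 (wild type) and 11.2 (heterozygous) (1.08). In Sec62 and Ssr4, as in Ssr3, the homozygous arrays did not overlap the others.

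Sec61a1, the pore of the channel, read 65.7 in the wild type culture, 30.9 in the heterozygous line, 104 in ko1 and 60.7 in ko2. Its ko2 value lay below wild type as deposited, and after centring both lines lay above (log2 difference 1.02 from wild type and 1.38 from heterozygous). Its beta chain Sec61b read 90.1 (ko1) and 49.02 (ko2) against 89.01 (wild type) and 49.2 (heterozygous), with ko2 level with heterozygous and a difference of 0.33 ± 0.54 (SE). Of the rest, Ssr1 read 39.8 (ko1) and 16.3 (ko2) against 29.1 (wild type) and 24.4 (heterozygous) (0.56) and Ssr2 57.2 (ko1) and 37.9 (ko2) against 56.3 (wild type) and 21.7 (heterozygous) (0.48). The ER-membrane J protein gene Sec63, which recruits BiP to the channel, was dim and split the lines, at 8.96 (ko1) and 2.30 (ko2) against 7.62 (wild type) and 4.80 (heterozygous) (0.11 ± 1.04 (SE)). None of the 8 passed the test.

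Signal peptidase genes had a median of 0.81. Spcs2, an accessory subunit, read 25.7 (ko1) and 23.7 (ko2) against 23.5 (wild type) and 9.80 (heterozygous), close to wild type as deposited and above heterozygous (0.81 from wild type). Its second probe set stood further from wild type, at 26.1 (ko1) and 23.8 (ko2) against 15.3 (wild type) and 8.02 (heterozygous) (1.42). Spcs1, another accessory subunit, read 28.4 (ko1) and 14.96 (ko2) against 16.2 (wild type) and 14.1 (heterozygous) (1.08), and Spcs3 10.6 (ko1) and 9.81 (ko2) against 10.8 (wild type) and 8.04 (heterozygous) (0.67). The catalytic subunit gene Sec11a was nearly flat across the arrays as deposited, at 29.8 (ko1) and 24.6 (ko2) against 30.3 (wild type) and 28.1 (heterozygous) (0.59 ± 0.56 (SE)). Its paralog Sec11c read 0.379 in the wild type culture, 6.29 in the heterozygous line, 5.83 in ko1 and 5.16 in ko2. That gives the largest fitted difference of the whole set (3.29 ± 1.25 (SE)), but wild type and heterozygous were both below background, so the difference from wild type is known only to be at least 1.21-fold. Such a bound sets the mean of the homozygous arrays over the background of the dim array, relative to the median gene. Against heterozygous the fitted difference was -0.14.

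Oligosaccharyltransferase had the narrowest range of the 7 roles: its 6 genes stood between 1.05 and 1.62, with a median of 1.24. Dad1, a small subunit first known as defender against cell death, read 42.96 in the wild type culture, 34.9 in the heterozygous line, 95.2 in ko1 and 66.4 in ko2. Both lines lay above both other cultures, by 1.62 ± 0.54 (SE) from wild type (adjusted p = 0.483) and 1.20 from heterozygous. Rpn1, ribophorin I, which presents substrates to the enzyme, read 76.2 in the wild type culture, 47.2 in the heterozygous line, 175 in ko1 and 86.8 in ko2 (1.44 ± 0.56 (SE)), and Ddost 103 (ko1) and 63.8 (ko2) against 56.1 (wild type) and 32.4 (heterozygous) (1.27 ± 0.54 (SE)). In these the homozygous lines again did not overlap the others.

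Rpn2 read 89.2 (ko1) and 36.4 (ko2) against 45.6 (wild type) and 21.1 (heterozygous), with ko2 below wild type as deposited (1.07). Of the catalytic subunits, Stt3b, which glycosylates sites missed during translocation, read 42.2 (ko1) and 22.9 (ko2) against 25.01 (wild type) and 21.4 (heterozygous) (1.05). Stt3a, which acts beside the channel, read 17.8 (ko1) and 17.7 (ko2) against 12.6 (wild type) and 19.5 (heterozygous), highest in heterozygous (1.21 from wild type, -0.10 from heterozygous). Its second probe set put heterozygous lowest, at 24.5 (ko1) and 14.2 (ko2) against 13.1 (wild type) and 6.98 (heterozygous), or 1.23 from wild type and 1.37 from heterozygous, so the order of the single cultures depends on the probe set. Rpn1 had the most probe sets to compare. Its 4 other probe sets above background on all arrays stood at 0.94, 1.10, 1.91 and 1.65, and in each both homozygous lines lay above both other cultures. The second probe set of Dad1 stood at 1.99.

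The chaperones and cochaperones had a median of 1.42, 1.88 in ko1 and 1.19 in ko2, and all 9 lay above the median gene without a call. Hyou1, the large HSP70-like exchange factor of BiP, read 15.8 in the wild type culture, 14.2 in the heterozygous line, 76.1 in ko1 and 25.8 in ko2. Homozygous minus wild type was 2.20 ± 0.60 (SE), adjusted p = 0.323, and homozygous minus heterozygous 1.63. On the second probe set ko1 read 6.69 and ko2 7.37, against 18.2 and 7.23, a difference of -0.55, so the probe sets disagree. Hsp90b1, which encodes GRP94, the ER form of HSP90, read 23.9 in the wild type culture, 16.7 in the heterozygous line, 73.2 in ko1 and 32.6 in ko2 (1.76 ± 0.57 (SE)). Its second probe set gave 1.03, but with ko1 at 15.3, below wild type at 19.6, and ko2 highest at 37.4. Creld2, a disulfide isomerase-like ER protein induced by unfolded protein, read 41.3 (ko1) and 17.4 (ko2) against 12.3 (wild type) and 14.6 (heterozygous) (1.84 ± 0.62 (SE)). Dnajb11, the ERdj3 cochaperone of BiP, read 19.97 (ko1) and 23.1 (ko2) against 14.2 (wild type) and 8.63 (heterozygous) (1.32 ± 0.64 (SE)). In Hyou1, Hsp90b1, Creld2 and Dnajb11 the homozygous arrays lay above both others on the probe set used.

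Hspa5, the gene of BiP, did not follow the homozygous genotype. It read 19.9 in the wild type culture, 75.4 in the heterozygous line, 49.9 in ko1 and 67.9 in ko2, so that wild type stood apart and heterozygous was the highest of the 4. The homozygous lines differed by 2.27 ± 0.54 (SE) from wild type (limma adjusted p = 0.21) and by -0.34 from heterozygous, while heterozygous differed by 2.57 from wild type. The second Hspa5 probe set had wild type highest (30.6, 12.2, 37.3 and 29.9 in ko1, ko2, wild type and heterozygous, a difference of -0.17), and the third read 26.5, 17.02, 11.1 and 13.2 (1.64). The direction for Hspa5 thus depends on the probe set.

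The lectin chaperones parted. Calr, calreticulin, read 87.6 in the wild type culture, 53.1 in the heterozygous line, 280.1 in ko1 and 69.7 in ko2, highest in ko1 (1.42 ± 0.60 (SE); 2.25 in ko1 and 0.42 in ko2). Its other 2 probe sets gave 1.69 and 1.61, and on both of them, as on the brightest after centring, both homozygous lines lay above both other cultures. Canx, calnexin, was nearly level across the cultures, at 35.2 (ko1) and 35.3 (ko2) against 42.3 (wild type) and 39.8 (heterozygous) (0.49 ± 0.54 (SE)). Dnajc3, the P58IPK cochaperone, read 6.36 (ko1) and 8.50 (ko2) against 6.77 (wild type) and 6.08 (heterozygous), and Sdf2l1, a partner of ERdj3, 5.74 (ko1) and 10.6 (ko2) against 11.4 (wild type) and 9.02 (heterozygous). Their differences from wild type were 0.86 and 0.24.

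The 7 genes with an ERSE match, printed above for 4 of them, did not stand apart as a block. Their median difference from wild type was 1.42, with a range from 0.49 in Canx to 2.27 in Hspa5, against 1.06 over the 30 tested genes with a window and no ERSE. Against heterozygous the medians were 0.88 and 0.88. In 4 of the 7 and in 18 of the 30 the homozygous lines lay above both other cultures after centring, against 18.1% of all tested genes. These are descriptions with no test.

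Among the disulfide isomerases Pdia3 was 1 of the 2 members that passed a test. Pdia3, ERp57, which forms disulfides in glycoproteins held by calnexin and calreticulin, read 31.3 in the wild type culture, 14.9 in the heterozygous line, 83.7 in ko1 and 60.8 in ko2. Both homozygous arrays lay above wild type, and wild type above heterozygous. Pdia3 rose 4.74-fold against heterozygous (2.24 ± 0.54 (SE), limma adjusted p = 0.0255), while against wild type it stood at 1.92 ± 0.54 (SE) (adjusted p = 0.393). The call against heterozygous ended with the pseudocount divided by 16, after quantile normalization, median centring or averaging of probe sets, and without the filter or the intensity trend, at adjusted p between 0.0712 and 0.634. Pdia6, P5, read 134 (ko1) and 44.8 (ko2) against 51.4 (wild type) and 40.96 (heterozygous) (1.33 ± 0.57 (SE)), with ko2 between the single cultures. Pdia4, ERp72, was dim and uneven, at 4.58 (ko1) and 12.5 (ko2) against 10.6 (wild type) and 0.770 (heterozygous) (0.30 ± 1.05 (SE)).

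The receptors that retrieve chaperones and sort cargo had the highest median of the roles, 1.65, and all 7 lay above the median gene. Kdelr3, a KDEL receptor, was the other member that passed a test. Kdelr3 read 10.9 in the wild type culture, 5.04 in the heterozygous line, 57.4 in ko1 and 45.6 in ko2. Both homozygous lines were far above both other cultures, and close to each other. Against heterozygous, which was below its background of 6.92, Kdelr3 rose at least 7.56-fold (fitted 3.21 ± 0.60 (SE), limma adjusted p = 0.00112). Against wild type it stood 7.50-fold higher without passing (2.91 ± 0.60 (SE), adjusted p = 0.0633); with the larger pseudocount of 1.84 that comparison passed (2.68, adjusted p = 0.0404). The rise over heterozygous lost its call with averaged probe sets (adjusted p = 0.116) and without the intensity trend (adjusted p = 0.634). Kdelr3 has only 1 probe set, so averaging left its own signals unchanged (fitted 3.19).

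The other KDEL receptors showed smaller differences in the same order. Kdelr2 read 37.4 in the wild type culture, 24.2 in the heterozygous line, 97.1 in ko1 and 51.02 in ko2 (1.65 ± 0.55 (SE) from wild type, 1.55 from heterozygous), and its second probe set stood at 1.67. Kdelr1 read 13.7 in the wild type culture, 8.61 in the heterozygous line, 35.1 in ko1 and 18.98 in ko2 (1.63 ± 0.63 (SE) and 1.55). In all 3 receptors both homozygous arrays lay above both other arrays.

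Of the cargo receptors, Tmed10, the p24 family member p23, read 14.8 (ko1) and 11.9 (ko2) against 6.65 (wild type) and 5.71 (heterozygous), with both single cultures below background and at least 2.93-fold between homozygous and wild type. Tmed2, its p24 partner, read 3.50 (ko1) and 6.77 (ko2) against 0.354 (wild type) and 0.257 (heterozygous); only ko2 was above background, so the fitted difference of 3.18 rests on 1 culture. Lman1, the ERGIC-53 lectin that carries glycoproteins out of the ER, read 28.02 (ko1) and 16.96 (ko2) against 22.1 (wild type) and 15.9 (heterozygous) (0.73). Surf4, a cargo receptor for soluble proteins, read 25.9 (ko1) and 16.03 (ko2) against 22.3 (wild type) and 15.3 (heterozygous) (0.62). On these probe sets of Lman1 and Surf4 ko2 lay below wild type as deposited. The other Surf4 probe sets above background on all arrays put both homozygous lines above both other cultures, at 1.15 on each. The second Lman1 probe set split the lines, at 6.37 (ko1) and 22.7 (ko2) against 17.6 (wild type) and 10.5 (heterozygous) (0.24).

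The COPII coat stood lowest of the roles, at a median of 0.34, 0.14 in each line alone, and held the 2 members below the median gene. Sec23b, an inner coat subunit, read 17.6 (ko1) and 11.7 (ko2) against 32.3 (wild type) and 33.3 (heterozygous) (-0.39 ± 0.59 (SE) from wild type, -1.15 from heterozygous). Sec24d, a cargo-binding subunit, read 8.71 (ko1) and 6.997 (ko2) against 19.1 (wild type) and 9.95 (heterozygous) (-0.48 ± 0.74 (SE)). In both the homozygous arrays lay below both others, without a call. Sec23a, the paralog of Sec23b, stood on the other side on a dim probe set, at 5.80 (ko1) and 7.84 (ko2) against 3.58 (wild type) and 2.90 (heterozygous); both single cultures were below background, and the difference from wild type is at least 1.49-fold (fitted 1.55 ± 1.08 (SE)). Loss of SEC23A is known to impair collagen export in skeletal cells, but whether its dim signal moved with the collagen genes was not tested.

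The outer coat gene Sec31a read 54.8 (ko1) and 41.6 (ko2) against 74.7 (wild type) and 33.5 (heterozygous) (0.11 ± 0.53 (SE)), and Sec13 41.9 (ko1) and 22.2 (ko2) against 34.2 (wild type) and 11.9 (heterozygous) (0.59). Of the GTPases that start the coat, Sar1a read 50.7 (ko1) and 24.7 (ko2) against 32.3 (wild type) and 40.6 (heterozygous) (0.88) and Sar1b 7.89 (ko1) and 14.4 (ko2) against 14.4 (wild type) and 8.96 (heterozygous) (0.34). After centring, 2 of 7 COPII genes (28.6%), Sec13 and Sec23a, had both homozygous lines above both other cultures, against 18.1% of all tested genes. In Sec13 the centred ko2 value was nearly level with wild type (1.856 against 1.851), and Sec23a was below background in both single cultures. Of the receptor genes 7 of 7 had both homozygous lines above both others, among them Tmed2, which passed the filter only through the homozygous arrays. Above background on all arrays were 6 of the COPII genes and 4 of the receptor genes. The difference in order between these roles was not tested.

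**Figure D3:**
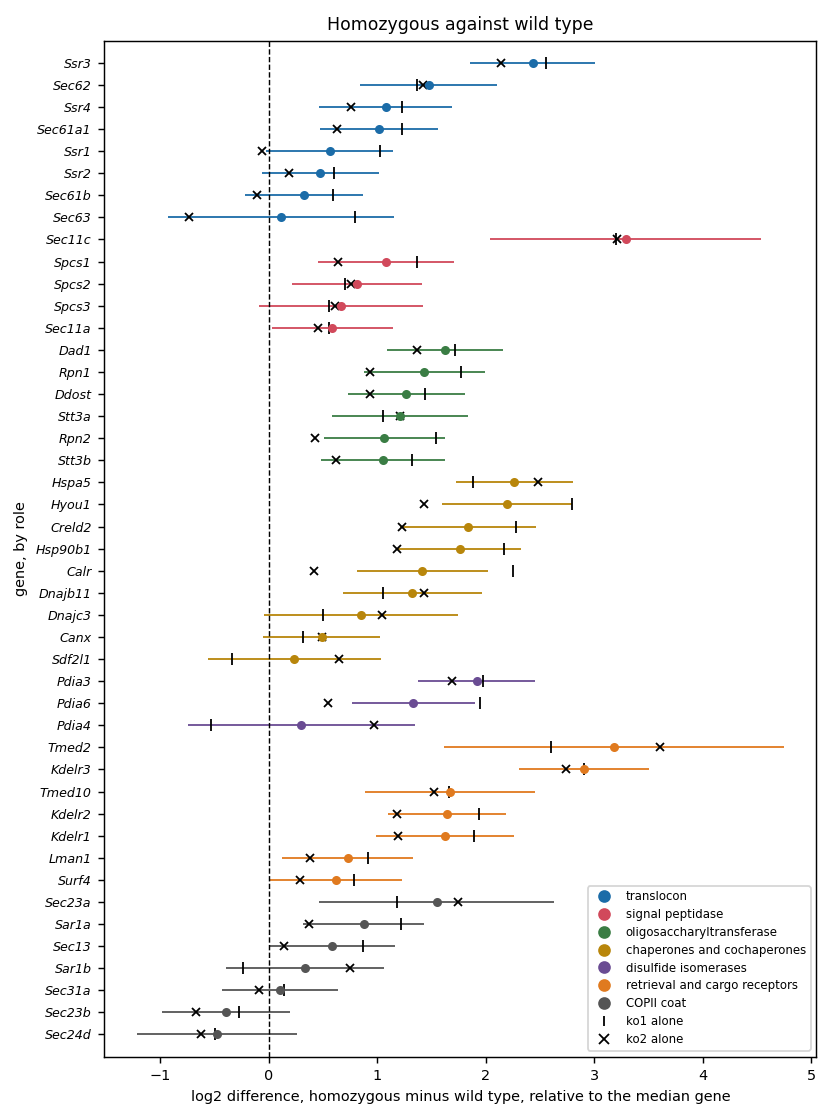
Log2 difference of homozygous minus wild type for each member, relative to the median gene, by role (circles with limma SE bars, n = 2 homozygous arrays and 1 wild type array), with ko1 (vertical tick) and ko2 (cross) alone, each relative to its own median gene. Kdelr3, Ssr3, Hspa5 and Pdia3 lie well to the right in both lines, Calr and Hyou1 further right in ko1, and Sec23b and Sec24d to the left of the dashed line.

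Compared with heterozygous cells, the homozygous lines showed the same set at a median of 0.94, with 35 of 45 genes above the median gene; this comparison shares the homozygous arrays with the one above. Kdelr3 and Pdia3 rose and none fell, where 0.699% of all tested genes rose and 0.0583% fell. At an unadjusted p under 0.05, 15 of 45 were higher (33.3%, against 4.93%) and 0 lower. Heterozygous minus wild type, 1 array each, had a median of 0.22 with 30 of 45 above the median gene, and 0 members passed the test (0% of all tested genes rose and 0.0146% fell; at an unadjusted p under 0.05 by limma, 1 member was higher, Hspa5, and 3 lower, 2.22% and 6.67% against 0.313% and 7.25% of all tested genes). With wild type and heterozygous as 1 group, Kdelr3 rose (3.002 ± 0.63 (SE), adjusted p = 0.00556) and no other member did, against 0.444% of all tested genes rising and 0.211% falling; 6 of 45 were higher at an unadjusted p under 0.05 (13.3%, against 2.2%).

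In that fit of 2 groups the scaling set the count. After median centring 4 members rose (Kdelr3, Pdia3, Hyou1 and Kdelr2; 8.89%, against 0.889% of all genes), and after quantile normalization 7 did (these and Dad1, Hsp90b1 and Rpn1; 15.6%, against 1.06%). Without ko1 or without ko2 the count in this fit was 0, without wild type 2 and without heterozygous 1.

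The genes of the basement membrane matrix differed by far larger amounts. Of 10 basement membrane genes, 6 rose against wild type and 0 fell, where 0.401% of all tested genes rose and 0.619% fell. The 6 were Col4a1, Col4a2, Lama1, Lamb1, Lamc1 and Sparc. The median of the 10 was 4.31, against 1.08 for the machinery. Col4a2 and Lamb1 were below background in wild type, so they are known only to be at least 119-fold and 27.7-fold higher. Col4a1, a chain of type IV collagen, read 10.3 in the wild type culture, 11.3 in the heterozygous line, 1125 in ko1 and 663 in ko2, and Lamc1, the laminin gamma chain, 294 (ko1) and 132 (ko2) against 25.8 (wild type) and 12.4 (heterozygous). The other 4, Nid1, Nid2, Agrn and Hspg2, stood at 1.12, 0.99, 0.997 and -0.41, within the range of the machinery genes. Summed over the list, the matrix signal was 7066 (ko1) and 3931 (ko2), where wild type had 301 and heterozygous 195, while that of the machinery was 2284 and 1317 against 1283 and 929. On the deposited scale the ko2 sum of the machinery was thus close to that of wild type. The matrix genes were chosen with earlier results of these arrays known, so their rise is no independent support.

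**Figure D4:**
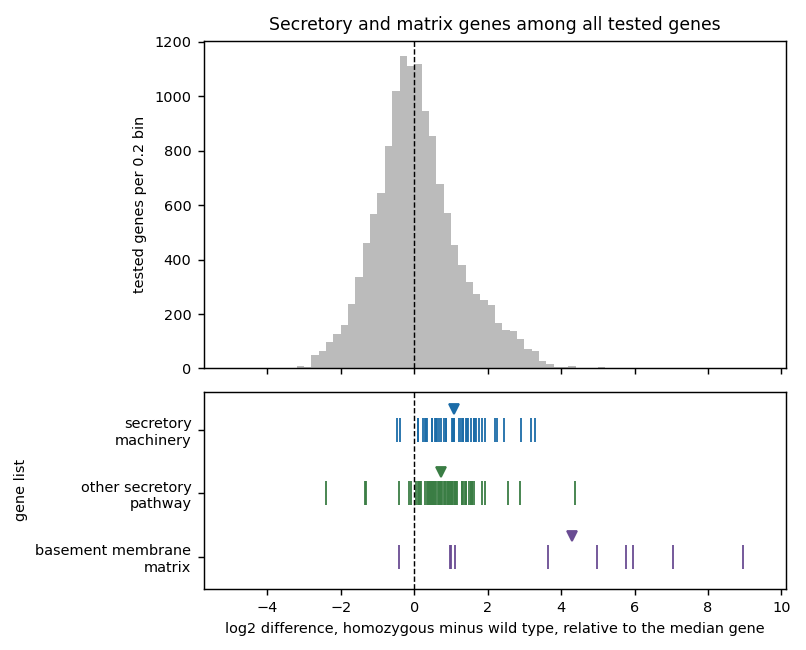
Upper panel, number of tested genes per bin of the log2 difference homozygous minus wild type, relative to the median gene; lower panel, each gene of 3 lists as a tick on the same axis, with a triangle at the list median. The machinery genes lie between -0.48 and 3.29 with a median of 1.08 and the other secretory pathway genes at 0.74. The matrix genes spread to a fitted 8.95 in Col4a2, which was below background in wild type.

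The rest of the pathway also lay mostly above the median gene. Of 71 measured genes of targeting, glycan trimming, degradation, stress signalling and vesicle coats, 65 lay above the median gene, with a median of 0.74; on the deposited scale the median was -0.01, with 35 of 71 above 0. None rose or fell against wild type by limma. At an unadjusted p under 0.05, 1 was higher, Sec22b (1.41%, against 1.81% of all tested genes), and 1 lower, Ern1 (1.41%, against 10.1%). Sec22b, a fusion protein of ER-to-Golgi vesicles, read 0.659 in the wild type culture, 4.02 in the heterozygous line, 16.4 in ko1 and 15.3 in ko2; wild type was below background, and the difference is at least 3.51-fold (adjusted p = 0.0501, and 0.0446 with the larger pseudocount). Pdia5, a disulfide isomerase, read 22.1 (ko1) and 12.6 (ko2) against 6.99 (wild type) and 0.657 (heterozygous), and rose at least 2.46-fold against heterozygous, which was below background (adjusted p = 0.0255); that call ended after quantile normalization, median centring or averaging of probe sets, and without the filter or the trend (adjusted p between 0.128 and 0.634). Edem1 and Herpud1, both of ER-associated degradation, read 8.28 (ko1) and 7.34 (ko2) against 1.25 (wild type) and 1.44 (heterozygous) and 5.94 (ko1) and 4.78 (ko2) against 1.03 (wild type) and 0.772 (heterozygous), with wild type below background in each and at least 1.73-fold and 1.18-fold differences. Mia3, the TANGO1 receptor that loads collagen into COPII carriers, read 13.5 (ko1) and 13.2 (ko2) against 5.82 (wild type) and 11.2 (heterozygous) (at least 2.96-fold from wild type). Ern1, the stress sensor IRE1, read 0.593 (ko1) and 0.651 (ko2) against 10.8 (wild type) and 6.64 (heterozygous). It was below background in both homozygous lines and in heterozygous, and above it in wild type only.

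Other measures moved with the same arrays. The machinery was higher in ko1 than in ko2 in 35 of 45 genes after centring (77.8%, against 53.5% of all tested genes), and ko1 also had the highest actin ratio, 5.01; the part of RNA quality in the result was not tested. For ko2 the ratio was 2.61, for heterozygous 2.86 and for wild type 1.30, and the median of the set in ko2 was 0.76 from wild type and 0.55 from heterozygous. All 10 markers of extraembryonic endoderm lay above the median gene and 4 rose (Gata4, Sox17, Pth1r and Cubn). Of the 10, 2 were above background on all arrays, and none was at 0. Their summed signals were 522 and 241 in the homozygous lines against 39.3 and 28.0. Sox17, Pth1r, Cubn, Pdgfra and Sox7 passed the filter of 2.55 only through the homozygous arrays, by their mean over the single cultures. These could hardly appear other than higher there, so both counts are partly set by the filter. All 10 ES cell markers lay below the median gene and 7 fell, with sums of 771 and 884 against 3408 and 1985. Against wild type 0.401% of all tested genes rose and 0.619% fell. Every ES cell marker was above background on all arrays, Pou5f1 at 11.7 (ko1) and 42.1 (ko2) against 213 (wild type) and 98.7 (heterozygous). Fibroblast markers (8 of 10 measured) summed to 74.2 and 93.7 against 63.5 and 47.3 with none called. Their median difference from wild type was 1.22, above the 1.08 of the machinery, with 6 of 8 above the median gene, and it was 0.65 from heterozygous. Of the 8, 1 was above background on all arrays, and Dcn and Twist1 passed the filter only through the homozygous arrays. Trophoblast markers (7 of 8) summed to 38.0 and 37.0 against 42.5 and 23.2, likewise with none called. Their median from wild type was 0.45, with 6 of 7 above the median gene and 0 above background on all arrays. In RNA of whole cultures, more cells of a type and more RNA per cell cannot be told apart, and the part of such markers in the result was not tested.

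Where a member had more probe sets above background on all arrays, they mostly went the same way. There were 23 such probe sets in 15 genes, and 20 lay above the median gene. The 3 below it belonged to Sec61a1 (-0.07), Hspa5 (-0.17) and Hyou1 (-0.55), each of which had a brighter probe set above it.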

How the data were processed

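RNA of 4 mouse ES cell cultures was labelled with biotin and measured on 4 Affymetrix arrays, per the labels' protocols. Per the submitters' processing notes the authors made the values with MAS5: the deposited table holds a linear intensity for each probe set. For MAS5 the version and the scaling target were not given in the sources used here. Arrays have no read depth, and their number limits the precision.

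Of 45101 probe sets, 34958 had 1 gene symbol in the platform annotation, 932 several and 9211 none; only the first were used, the brightest per gene, and those whose mean signal passed 2.55 (the 40th percentile) were tested. Values were taken as log2(signal + 0.675), the 20th percentile of all values, which understates changes of dim genes. limma 3.58.1 in R 4.3.3 fitted 1 mean per genotype across all 13730 genes (eBayes with an intensity trend, Benjamini-Hochberg adjustment, threshold 0.05). The fit has 1 residual degree of freedom, 47.60 in total after borrowing across genes. A second fit took the homozygous arrays against both others; there the variance came wholly from the trend. The script was tested on simulated data. Where the dimmer side was at background, folds are bounds: the brighter side's mean divided by that background, less the shift of the median gene. Promoter sequences are RefSeq's.

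The members, lists and rules were chosen with earlier results of these data known. All members are named; of the other pathway genes those called and the 6 largest differences from wild type. Alternatives were other pseudocounts, normalizations, filters, probe set rules, variance models and leaving out arrays; added after seeing the data were the median against genes of like signal, the median and the order of arrays over members above background on all arrays, and the same settings against heterozygous.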

Additional observations from a re-analysis of the deposited data

How the results depend on the processing

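The median of the machinery genes against wild type stayed on the same side of the median gene under every alternative run, from 0.76 to 1.23, and at 1.10 against genes of the same class of signal. Risen members against wild type were 0 in the fit of a mean per genotype under all alternatives but the larger pseudocount, where Kdelr3 made it 1; the fit of 2 groups also gave 1. In that fit the count was 4 after median centring, 7 after quantile normalization, and 0 with probe sets averaged or without the intensity trend; leaving out single arrays gave 0 to 2. Against heterozygous it went from 2 to 1 after median centring, after quantile normalization, without the filter or with the pseudocount divided by 16, and to 0 with probe sets averaged or without the trend. Members with both homozygous arrays above both others went from 18 to 29 after median centring or quantile normalization, and those below from 3 to 5 with probe sets averaged. Of the other pathway genes 1 rose with the larger pseudocount, Sec22b. Without ko1 or ko2 the fit of a mean per genotype has no residual degrees of freedom, so those settings give values only. No paired analysis was possible because the groups share no replicate numbers in the labels. The single wild type and heterozygous arrays, and background on 8 of the 45 members, limit every comparison.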

Other observations

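Within the wider pathway, genes of glycan trimming and the folding cycle had the highest median in both comparisons of the homozygous lines; the lowest was that of ER exit against wild type and that of targeting against heterozygous. The 11 glycan trimming and folding genes had a median of 1.29 from wild type and 1.57 from heterozygous. In 8 of them both homozygous lines lay above both other cultures after centring, against 18.1% of all tested genes. The 10 COPI coat genes, which serve retrograde transport, stood at 0.79, all above the median gene, and the 12 genes of ER-associated degradation at 0.78, with 11 above. Genes of the unfolded protein response, 10 in number, stood at 0.70 with 8 above, and 9 genes of targeting by the signal recognition particle at 0.64, all above (0.46 from heterozygous). The 5 accessory genes of oligosaccharyltransferase stood at 0.68, all above. The other 14 measured genes of COPII and ER exit stood at 0.53 with 12 above (0.50 from heterozygous). These values are relative to the median gene. None of these genes passed the test against wild type, and the differences between the groups were not tested.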
